A study of Mus musculus with 3 samples.

Results

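The genes described here are 32 genes of the p53 response, measured by single-cell RNA sequencing in tumour tissue of mice that carried Lewis lung carcinoma cells. They were chosen by symbol from the 32285 genes of the deposited matrices, as a transcript readout of DNA damage after radiation, and all 32 had a row and at least 1 UMI in each of the 3 libraries. The list is made of Trp53 itself and its inhibitor Mdm2, 6 growth arrest genes (Cdkn1a, Ccng1, Gadd45a, Btg2, Plk2, Plk3), 14 cell death genes (Bax, Bbc3, Pmaip1, Fas, Tnfrsf10b, Perp, Pidd1, Apaf1, Aen, Ei24, Trp53inp1, Phlda3, Eda2r, Zmat3), 5 stress and metabolism genes (Sesn1, Sesn2, Gdf15, Dcxr, Ak1) and 5 DNA repair genes (Xpc, Ddb2, Polk, Rrm2b, Ercc5).

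The p53 protein is held at a low level by the ubiquitin ligase Mdm2. After DNA damage, kinases of the ATM and ATR pathways release p53 from Mdm2, and p53 then binds response elements near its targets and raises their transcription. Much of this control acts on the protein, so the transcript level of Trp53 is a weaker readout than that of targets such as Cdkn1a, which encodes the cyclin-dependent kinase inhibitor p21, and Mdm2, which closes the feedback loop. Several of the genes also respond to other signals, among them the integrated stress response (Gdf15, Sesn2) and immediate early signalling (Btg2, Gadd45a, Plk2, Plk3).

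All mice received the Lewis lung carcinoma line LLC1-sgLkb1, labelled as an LKB1 knockdown, by tail vein to form lung lesions that were not irradiated, and 3 weeks later under the skin to form the lesion that was. Flox+ICI came from Sfrp2 fl/fl hosts given an immune checkpoint inhibitor alone, Flox+RI from such hosts given radiation and the inhibitor, and the library labelled CKO+RI from Sfrp2 ΔCol1a2 hosts, in which the Col1a2 promoter marks the cells that lose Sfrp2, given radiation and the inhibitor. The inhibitor, the radiation dose, the age of the mice, the number of mice behind a library and the p53 status of the line are not given in the sources used here. The design text has the unirradiated lung lesions imaged before tissues were taken, but a library's lesion is not stated, its tissue being labelled as tumour. Cells with the markers of alveolar type 2 cells were found in all 3 libraries (71 in Flox+RI, 149 in the one labelled CKO+RI and 388 in Flox+ICI).

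Each library was the only one of its group, so no difference below has a replicate check and no p-value was computed. Total depth was between 75543561 and 161250286 UMIs per library, and 29866 cells were kept, with a median of 3018, 2576.5 and 13406 UMIs per cell. Here and below, 3 values joined in a sentence stand for Flox+ICI, then Flox+RI, then the library labelled CKO+RI. Any pair of libraries shared between 31 and 37 cell barcodes. Sfrp2, the gene deleted in CKO hosts, had 6, 3 and 46 UMIs in the kept cells, and fibroblast-like cells held 3, 1 and 37 of these. Per depth, Sfrp2 was at 3.99, 1.56 and 25.5 CPM in fibroblast-like cells. Its counts go against that label, and the reason was not tested. Every comparison with that library below is a comparison with the library as labelled.

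Cells were clustered without the 32 genes and clusters were named from marker genes, of which each named cluster had between 6 and 10 in at least 10% of its cells. A gate on each cell's own markers, which placed 21200 of the cells, gave counts within 1.5 times of those below in tumour-like, endothelial-like, macrophage-like, neutrophil-like and T cell-like cells, except in 1 neutrophil comparison. Levels are UMIs per 1000000 UMIs (CPM) summed over the cells of a class in a library, with exact Poisson 95% intervals, and ratios carry exact conditional binomial 95% intervals. All these intervals cover counting error only. A gene entered a comparison if it had at least 20 UMIs in both libraries together, and it was counted as higher or lower if the ratio of CPM was at least 2-fold after 0.5 counts were added to each sum. In each comparison the share of all genes past the same fold is given as the background. Fewer cells that make a transcript and less transcript per cell cannot be told apart in a sum over a class.

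Because the p53 response is read from genes that p53 binds, the promoters of the list were searched for the p53 response element, 2 adjacent half-sites of 10 bases, on both strands and with at most 2 mismatches. The windows ran from 250 bases before to 50 bases after the start of each gene (RefSeq, GRCm38.p6), and 24 of the 32 genes had one. A match was found in 2 of these 24 genes (8.33%), and in 106 of all 27025 genes with a window (0.392%). The 2 were Cdkn1a and Ccng1, which encodes cyclin G1, and each match had 1 mismatch. They are shown here, with the matching bases in capitals, since these genes carry many of the results below. Each is shown with up to 60 bases on either side. The first stretch lies on the plus strand of chr17:29090868-29090978, with the match at 29090928 to 29090947, ending 31 bases before the RefSeq start at 29090979. The second lies on the minus strand of chr11:40755402-40755536, with the match at 40755462 to 40755481, ending 175 bases before the RefSeq start at 40755286.
Cdkn1a: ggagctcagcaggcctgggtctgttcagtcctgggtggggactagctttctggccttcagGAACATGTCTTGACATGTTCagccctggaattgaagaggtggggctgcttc
Ccng1: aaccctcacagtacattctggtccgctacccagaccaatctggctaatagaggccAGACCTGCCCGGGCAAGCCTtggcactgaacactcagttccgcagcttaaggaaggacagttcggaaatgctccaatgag
A match describes these letters and is no evidence of binding in these cells. Cdkn1a (ENSMUSG00000023067) spans 29090976 to 29100727 on chromosome 17, and Ccng1 (ENSMUSG00000020326) spans 40748552 to 40755311 on chromosome 11 in the GENCODE annotation of GRCm38, whose gene starts differ from those of RefSeq. Trp53 (ENSMUSG00000059552) lies at 69580359 to 69591873 on chromosome 11 and Mdm2 (ENSMUSG00000020184) at 117688875 to 117710758 on chromosome 10.

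**Figure D1:**
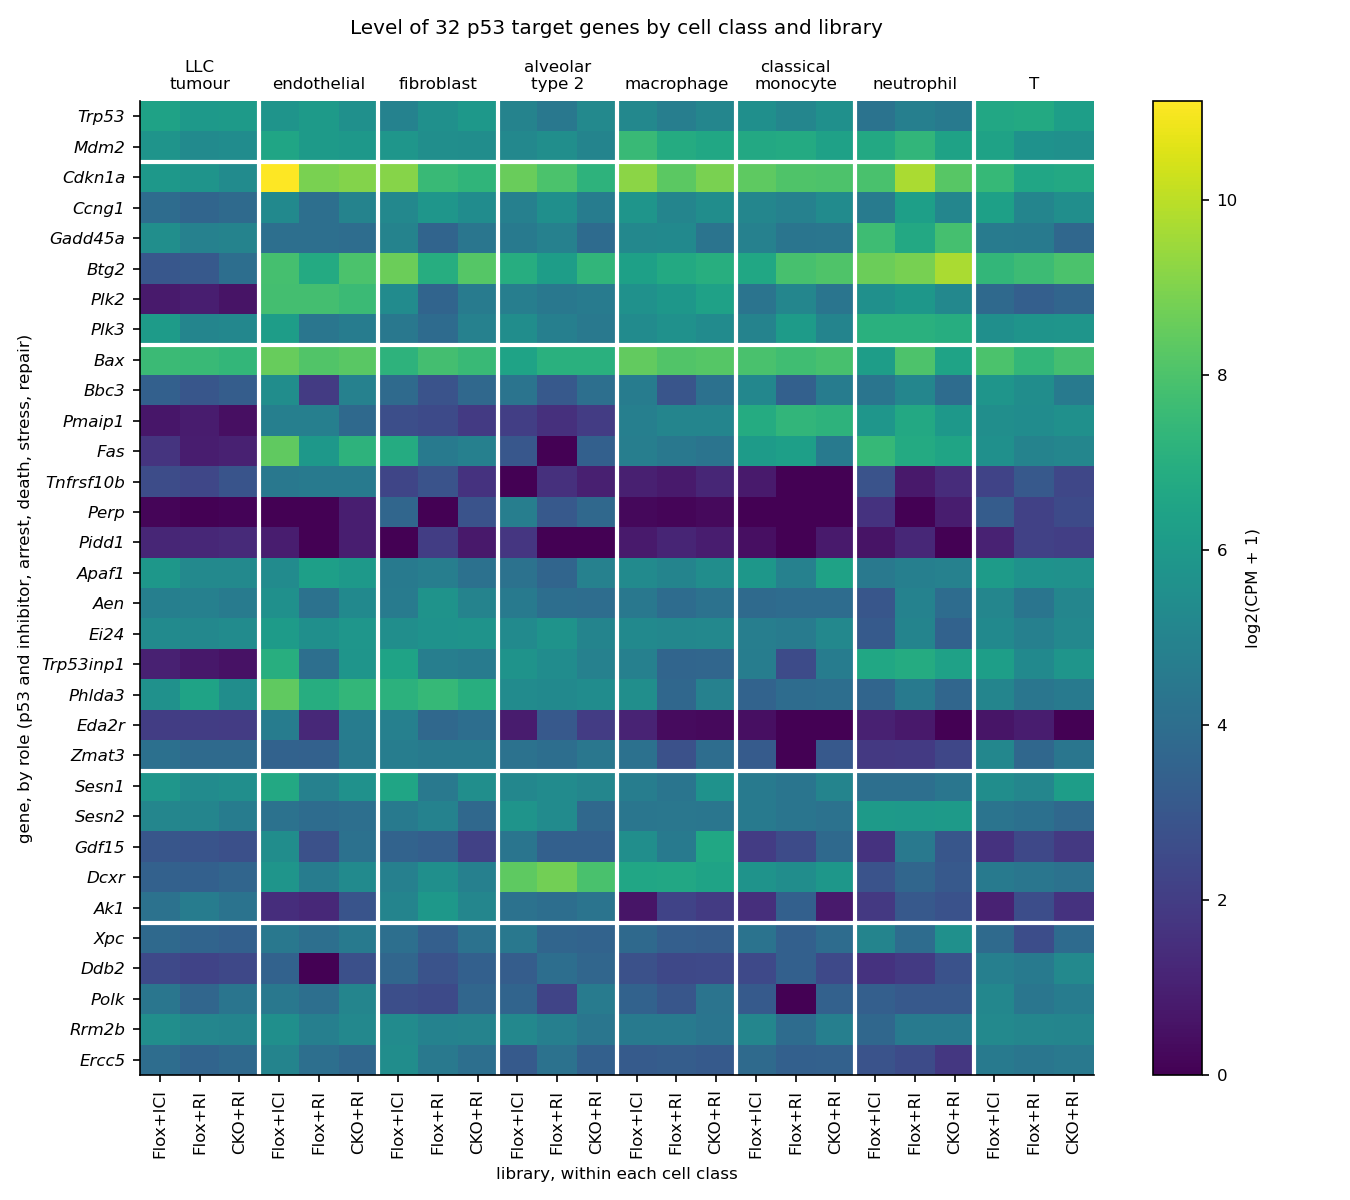
Level of the 32 genes, as log2(CPM + 1), in 8 cell classes (columns grouped by class, with the 3 libraries side by side) and by role (rows; white lines separate the roles). Cdkn1a in endothelial-like cells of Flox+ICI is the brightest cell at 2247 CPM, while the tumour columns are dark for Plk2, Pmaip1, Trp53inp1 and Btg2.

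Of the 6 arrest genes, Cdkn1a, Ccng1, Btg2 and Plk2 were lower in the LLC tumour-like cells than in each of the 7 host classes compared, in all 3 libraries. Gadd45a and Plk3 were not, with Gadd45a at 44.8, 28.5 and 30.4 CPM and Plk3 at 68.6, 32.5 and 34.1 CPM. Cdkn1a was at 60.8 (95% interval 58.6 to 63.0), 53.7 (52.0 to 55.4) and 40.5 (39.4 to 41.6) CPM. The 2 libraries from irradiated mice were thus the lower ones. Trp53 transcript itself was at 84.0, 63.6 and 66.2 CPM, so that it was present in the tumour cells of all 3 libraries. Mdm2 was at 53.1, 39.7 and 41.5 CPM, and Ccng1 at 14.4, 11.5 and 13.4 CPM. None of these 4 genes was above its Flox+ICI level in the libraries from irradiated mice.

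Among 31 genes with enough UMIs in tumour-like cells, 0 were at least 2-fold higher and 2 at least 2-fold lower in Flox+RI than in Flox+ICI, where 3.32% and 8.61% of all 16429 genes passed the same folds. Both shares are near the background. The 2 lower genes were Plk3, a stress-responsive kinase, at 68.6 CPM in Flox+ICI and 32.5 in Flox+RI (2.11-fold lower, interval 2.0 to 2.23), and Fas, the death receptor, at 2.23 and 0.853 CPM (2.62-fold lower, 1.89 to 3.65). The median log2 ratio of the 31 genes was -0.26, beside -0.24 over all genes. Bax, the pore-forming death effector, was at 190, 184 and 163 CPM. Phlda3, a target that restrains AKT, was the gene with the largest ratio above 1 among the 31, at 49.2, 87.0 and 43.1 CPM (1.77-fold above Flox+ICI in Flox+RI, 1.69 to 1.86). Cluster 2 held 2517 of the 4091 tumour-like cells of Flox+RI, and within it Phlda3 was at 62.9, 98.2 and 48.7 CPM, so that Flox+RI was again the highest library.

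The comparison of the library labelled CKO+RI with Flox+RI gave the same kind of count in tumour-like cells. Of the 31 genes, 0 were at least 2-fold higher and 2 at least 2-fold lower, with backgrounds of 4.76% and 9.57%. The median log2 ratio was 0.06, beside -0.03 over all genes. The lower genes were Phlda3 (2.02-fold lower, 1.94 to 2.09) and Pmaip1, which encodes the BH3-only protein Noxa, at 0.824 and 0.359 CPM (2.30-fold lower, 1.53 to 3.47). Cdkn1a was 1.32-fold lower (1.27 to 1.38). Perp, a desmosomal and death gene, had too few UMIs for a ratio (6, 1 and 10).

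**Figure D2:**
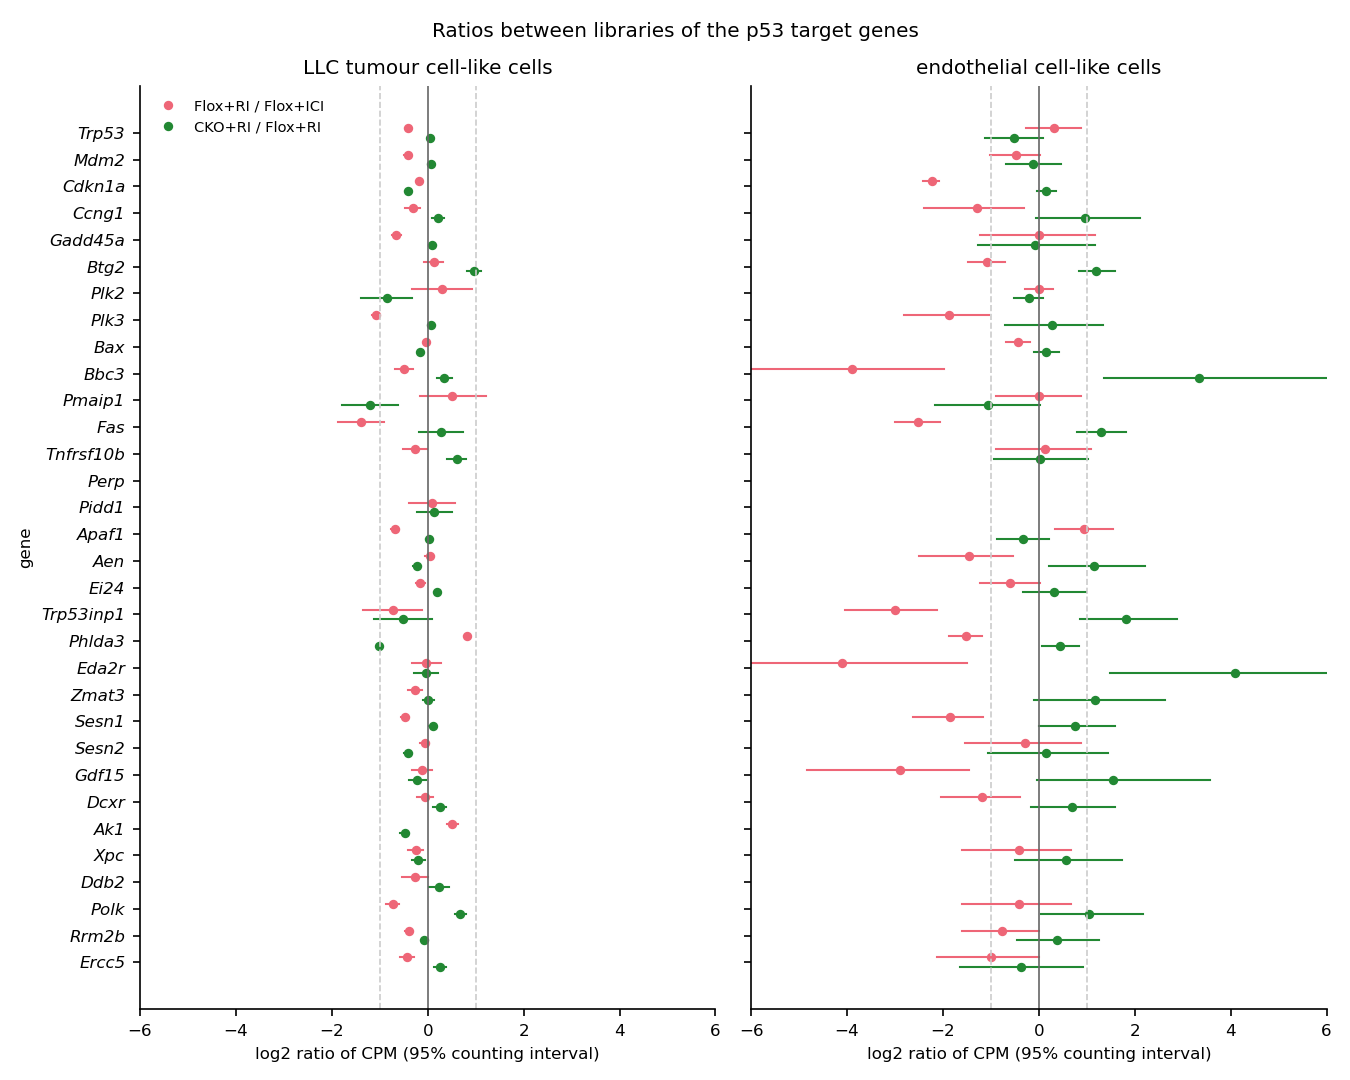
Log2 ratio of CPM for each gene with at least 20 UMIs, Flox+RI over Flox+ICI (red) and the library labelled CKO+RI over Flox+RI (green), in tumour-like and endothelial-like cells; lines are 95% counting intervals and dashed lines mark 2-fold. Most tumour points lie inside the dashed lines, while in endothelial-like cells 13 red points lie at or beyond 2-fold lower.

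Low Cdkn1a was common to the tumour clusters. In the 6 tumour-like clusters the level ran from 55.9 to 63.8 CPM in Flox+ICI where a cluster had at least 100 cells, the remaining one (cluster 9, with 21 cells and 9 UMIs of Cdkn1a) being at 31.6. In Flox+RI it lay between 30.9 in cluster 8 and 70.3 in cluster 3 over the clusters with at least 100 cells. Cluster 9 was led by Lum and Dcn and held 1322 cells of the library labelled CKO+RI. Without clusters 2 and 9, which hold most of their cells in 1 library each, 0 of 31 listed genes passed 2-fold in Flox+RI against Flox+ICI, where 4.73% of all genes were higher and 4.66% lower.

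Set beside the 7 host classes of the same library, 6 of 31 listed genes were lower in tumour-like cells than in every host class in all 3 libraries, against 3.53% of 15961 genes, and 0 were higher than in every host class, against 10.9%. These genes were Cdkn1a, Ccng1, Btg2, an antiproliferative factor, Plk2, a stress kinase, and the death genes Trp53inp1 and Pmaip1. For Cdkn1a the median of the host classes was 388, 268 and 260 CPM, which is 6.38, 5.0 and 6.42 times the tumour level. The host median of Ccng1 was 2.5, 2.82 and 3.01 times the tumour level. Btg2 was at 7.08, 7.73 and 15.1 CPM in tumour-like cells, with host medians of 167, 120 and 255. Plk2, Trp53inp1 and Pmaip1 were at or near 1 CPM or less in tumour-like cells of each library, Trp53inp1 for instance at 1.03, 0.625 and 0.438 CPM against host medians of 75.0, 26.5 and 28.4. Over the whole list, the share of low genes was above the background in each library, and the share of high genes was below it. At least 2-fold below the host median were 10 of 32, 8 of 31 and 8 of 32 genes, with backgrounds of 13.5%, 14.1% and 12.7%, and at least 2-fold above it 3 genes in each library, with backgrounds of 20.7%, 18.8% and 14.1%. The median log2 difference from the host median was 0.006, 0.05 and -0.29, beside 0.20, 0.23 and 0.15 over all genes. Eda2r and Ak1 were among the 3 higher genes of each library, with Ak1 at 17.2, 24.6 and 17.7 CPM against host medians of 1.86, 7.53 and 5.93, and the third gene was Trp53 in Flox+ICI, Phlda3 in Flox+RI and Tnfrsf10b in the one labelled CKO+RI. Sesn1 and Rrm2b were above every host class in Flox+RI, by little (40.8 CPM against at most 40.3 for Sesn1), where 17.8% of all genes were. Trp53 in tumour-like cells was 2.34, 1.90 and 1.42 times the host median, with T cells above it in each library. Tumour-like cells are the deepest class, with a median of 14665.5 to 25568.5 UMIs per cell, but 3 of the 6 low genes rest on few counts there, Plk2 on 36, 64 and 63 UMIs, Trp53inp1 on 50, 44 and 55 and Pmaip1 on 28, 58 and 45.

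**Figure D3:**
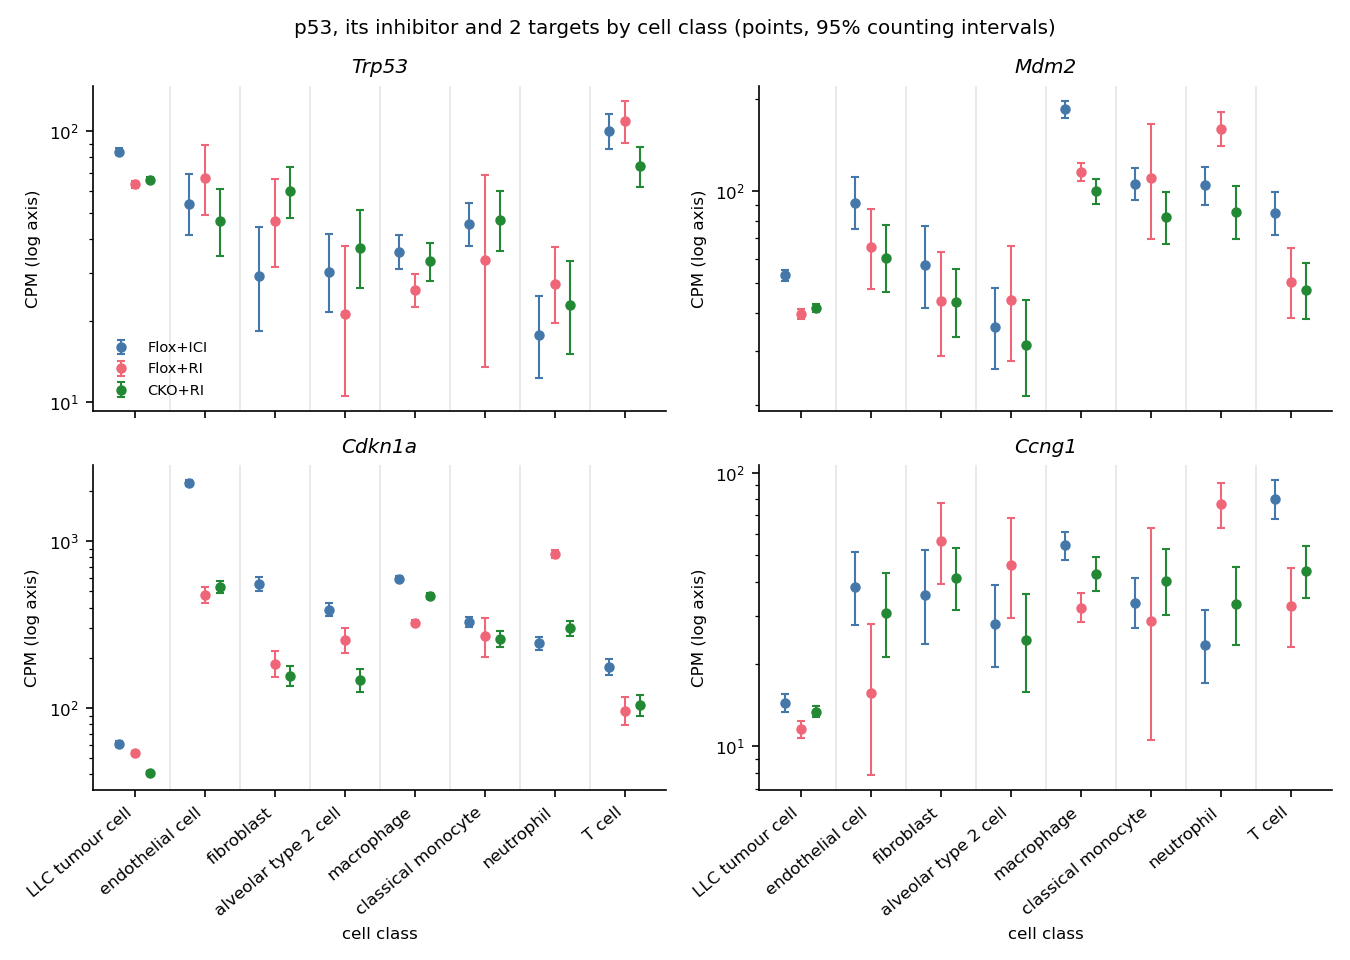
CPM (log axis) of Trp53, Mdm2, Cdkn1a and Ccng1 in 8 cell classes, 1 point per library with its 95% counting interval. Tumour-like cells hold the lowest Cdkn1a and Ccng1 points of each library, while their Trp53 is among the higher levels.

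Of the 8 classes compared, endothelial-like cells had the largest ratio of Cdkn1a between libraries, and the highest library was the one without radiation. Cdkn1a was at 2247 (2161 to 2335), 476 (427 to 530) and 532 (489 to 577) CPM. Flox+ICI stood alone, 4.72-fold above Flox+RI (4.21 to 5.30), and the other two were 1.12-fold apart (0.973 to 1.28). No other class with at least 50 cells in Flox+ICI reached this level, alveolar macrophage-like cells coming next at 823 CPM. Fas was at 342, 59.9 and 146 CPM (5.71-fold lower in Flox+RI, 4.15 to 8.05). Trp53inp1, which helps p53 switch to death, was at 126, 15.7 and 54.9 CPM (8.01-fold lower, 4.34 to 16.4). Bbc3, which encodes the BH3-only protein Puma, had 49, 2 and 31 UMIs, or 42.7, 2.85 and 28.9 CPM (15-fold lower, 3.93 to 127).

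Over the list, 27 genes could be compared, and 0 were at least 2-fold higher and 13 at least 2-fold lower in Flox+RI than in Flox+ICI, with backgrounds of 5.64% and 13.5%. The median log2 ratio was -0.96, beside -0.11 over all genes. The lower genes were 4 of 6 arrest genes, 6 of 11 death genes and 3 of 4 stress and metabolism genes, with 0 of 4 repair genes and neither Trp53 nor Mdm2. Not all of the list was lower. Mdm2 was at 91.6, 65.6 and 60.5 CPM, with an interval for Flox+RI against Flox+ICI that included 1 (1.40-fold lower, 0.978 to 2.02), Trp53 was at 54.1, 67.0 and 46.5 CPM, and Plk2 at 222, 222 and 192 CPM. Apaf1, the apoptosome scaffold, was higher in Flox+RI, at 40.1 CPM in Flox+ICI and 77.0 in Flox+RI (1.92-fold, 1.27 to 2.91). Phlda3 was at 345, 120 and 163 CPM and Sesn1, a sestrin that restrains mTORC1, at 104, 28.5 and 48.4 CPM.

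Some of these genes stood higher again in the library labelled CKO+RI. Of 28 genes compared with Flox+RI, 9 were at least 2-fold higher and 1 at least 2-fold lower, with backgrounds of 12.7% and 4.58%. The median log2 ratio was 0.40, beside 0.12 over all genes. With each cell given the same weight, the median was 0.083, beside 0.086 over all genes. Eda2r, a member of the TNF receptor family, had 28, 1 and 26 UMIs (24.4, 1.43 and 24.2 CPM), giving a ratio to Flox+RI of 17.0 (2.79 to 696). Bbc3 was 10.1-fold higher (2.57 to 87.2), Trp53inp1 3.5-fold (1.82 to 7.39) and Btg2 2.30-fold (1.78 to 3.0), with Btg2 at 233, 110 and 252 CPM. The lower gene was Pmaip1, with 19 UMIs in Flox+RI (27.1 CPM) and 14 UMIs in the one labelled CKO+RI, which had more endothelial-like cells. Cdkn1a, Phlda3 and Sesn1 did not pass 2-fold. Both comparisons share the Flox+RI library, which held 119 endothelial-like cells against 478 and 357.

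The subsets of endothelium differed between libraries as well. Hpgd, a gene of lung capillary endothelium, had a UMI in 373, 14 and 194 of the endothelial-like cells. Among cells with an Hpgd UMI Cdkn1a was at 2684, 1033 and 748 CPM, and among cells without one at 971, 431 and 324 CPM. In both subsets Flox+ICI was the highest library, as it was in cluster 13, which held most endothelial-like cells (2243, 467 and 521 CPM). Fas was at 386, 244 and 211 CPM with an Hpgd UMI and at 212, 44.8 and 83.8 CPM without. Without an Hpgd UMI, 6 of 18 genes were at least 2-fold lower in Flox+RI than in Flox+ICI and 0 higher, with backgrounds of 6.88% and 4.18%. With one, 7 of 22 were lower and 1 (Trp53) higher, with backgrounds of 17.2% and 11.2%. Between the libraries from irradiated mice, the genes at least 2-fold higher in the one labelled CKO+RI were Trp53inp1, Zmat3, Polk and Xpc, 4 of 22, without an Hpgd UMI (background 9.86%) and Btg2, 1 of 16, with one (background 13.6%). The median in cells with one was -0.12, beside -0.06 over all genes. This split was made after the data were seen.

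Other values moved with the endothelial result. Immediate early and heat shock genes were lower in Flox+RI too, 6 of 15 by at least 2-fold with a median log2 ratio of -0.91, and 0 of 15 were higher. In endothelial-like cells, summed markers of other airway epithelial cells were at 2826, 88.4 and 288 CPM, with a UMI for 7, 5 and 6 of the 7 markers. Neutrophil markers were at 1006, 168 and 269 CPM (10, 7 and 8 of 10 with a UMI) and erythroid markers at 457, 267 and 11912 CPM (4, 5 and 6 of 6). All 10 endothelial markers had a UMI in each library, at 10168, 10039 and 8255 CPM in sum. The part of these in the result was not tested. Thinned to 1000 UMIs per cell, which left 327, 108 and 244 cells, 82.6% (78.0 to 86.5), 41.7% (32.3 to 51.5) and 39.3% (33.2 to 45.8) of endothelial-like cells had a Cdkn1a UMI (exact Clopper-Pearson intervals). Unthinned shares were 83.5%, 74.8% and 44.3%, at median depths of 1363.5, 4247 and 1454 UMIs. The thinned share in tumour-like cells, the lowest in Cdkn1a level of the 8 classes compared, was 5.75%, 5.55% and 3.48%.

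**Figure D4:**
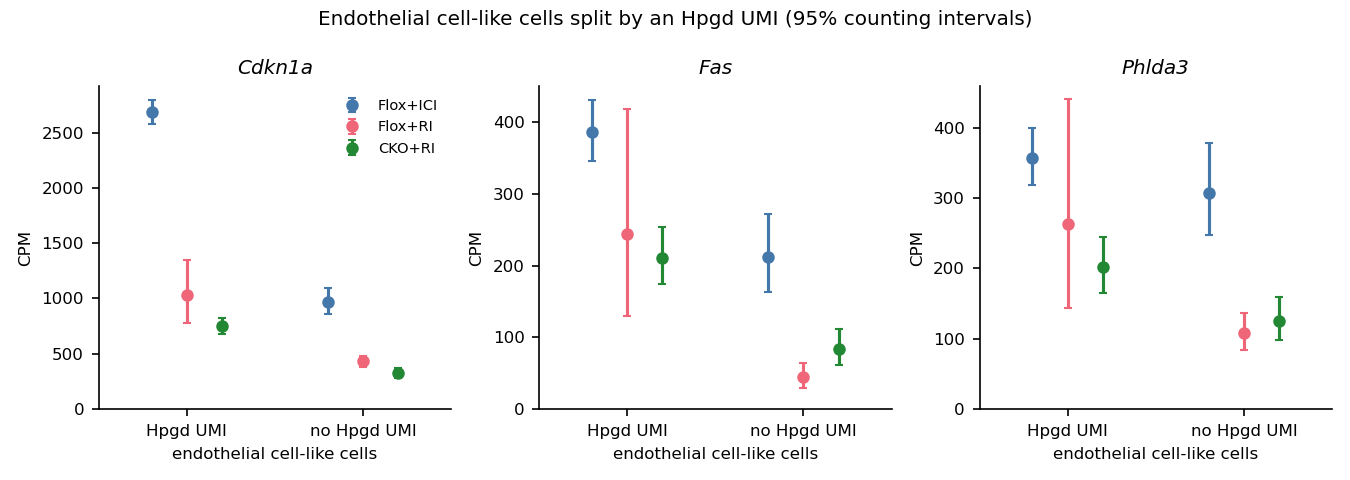
CPM of Cdkn1a, Fas and Phlda3 in endothelial-like cells with and without an Hpgd UMI, 1 point per library with its 95% counting interval. Flox+ICI is the highest point in each group of 3, at 2684 and 971 CPM for Cdkn1a.

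In fibroblast-like cells Cdkn1a followed the same order between the Flox libraries, at 552, 184 and 156 CPM (3.0-fold lower in Flox+RI, 2.44 to 3.71). Of 23 genes compared, 1 was at least 2-fold higher and 8 at least 2-fold lower, with backgrounds of 7.63% and 18.5%. Fas was 4.94-fold lower (2.84 to 9.21), Btg2 3.32-fold lower (2.58 to 4.32) and Sesn1 4.26-fold lower (2.38 to 8.19), and Aen was the higher gene (2.15-fold, 1.18 to 4.06). Bax was at 148, 223 and 183 CPM (1.51-fold higher in Flox+RI, 1.17 to 1.95) and Ccng1 at 35.9, 56.2 and 41.4 CPM. In the same cells 12 of 15 immediate early and heat shock genes were at least 2-fold lower and 10 of 15 cell cycle genes at least 2-fold higher in Flox+RI than in Flox+ICI. Their part in the Cdkn1a difference was not tested. Flox+RI held 74 fibroblast-like cells. In the library labelled CKO+RI, 3 of 26 genes were at least 2-fold above Flox+RI and 1 below, with backgrounds of 12.4% and 5.12%, and Btg2 had the bound farthest from 1 (2.46-fold higher, 1.92 to 3.17). Plk2 and Polk were the other higher genes and Sesn2 the lower one.

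Alveolar type 2-like cells had Cdkn1a at 388, 255 and 147 CPM, and Flox+RI was 1.52-fold below Flox+ICI (1.25 to 1.85). Here 0 of 24 genes were at least 2-fold higher and 2 lower in Flox+RI than in Flox+ICI, with backgrounds of 4.34% and 12.0%. Perp was one of these (3.43-fold lower, 1.22 to 13.3) and Bbc3 the other, with 23 UMIs in Flox+ICI and 4 in Flox+RI. Relative to Flox+RI, the library labelled CKO+RI had 3 of 23 genes higher and 2 lower, with backgrounds of 10.4% and 5.32%, with Btg2 and Apaf1 among the higher and Gadd45a among the lower genes. The others were Polk with 2 and 24 UMIs (6.12-fold higher, 1.52 to 53.4) and Sesn2, a sestrin of the stress response (3.17-fold lower, 1.51 to 6.88). Dcxr, a carbonyl reductase of sugar metabolism, had its highest level of the 8 classes in these cells, at 334, 434 and 243 CPM. Outside the 8 classes, other airway epithelial-like cells (46, 13 and 36 cells) had Dcxr at 474, 313 and 320 CPM. Dcxr was named after its values were seen.

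In macrophage-like cells 4 of the 10 death genes with enough UMIs were at least 2-fold lower in Flox+RI than in Flox+ICI. Phlda3 was at 43.9, 12.2 and 29.0 CPM (3.59-fold lower in Flox+RI, 2.83 to 4.58). Bbc3 was at 24.6, 6.72 and 16.9 CPM (3.66-fold lower, 2.65 to 5.11). Zmat3, an RNA-binding p53 target, was at 16.6, 5.74 and 14.9 CPM (2.90-fold lower, 2.01 to 4.22). In these 3 genes Flox+RI was the lowest library and Flox+ICI the highest. Trp53inp1 was at 27.6, 11.5 and 11.7 CPM (2.40-fold lower, 1.84 to 3.15).

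With these, 4 of 28 genes were at least 2-fold lower and 1 at least 2-fold higher, and the backgrounds were 3.30% and 3.62%. The median log2 ratio was -0.38, beside -0.10 over all genes. The higher gene was Ak1, an adenylate kinase, with 3 UMIs in Flox+ICI and 30 in Flox+RI (6.47-fold, 2.01 to 33.1). Cdkn1a was at 595, 325 and 469 CPM (1.83-fold lower in Flox+RI, 1.74 to 1.93), Mdm2 at 185, 115 and 99.7 CPM (1.60-fold lower, 1.46 to 1.75) and Ccng1 at 54.3, 32.2 and 42.8 CPM (1.69-fold lower, 1.42 to 2.0). Trp53 was at 35.9, 25.9 and 33.1 CPM. The order of Cdkn1a held in both macrophage-like clusters, at 597, 333 and 511 CPM in the cluster led by Arg1 and Apoe and 590, 288 and 459 CPM in the one led by C1qa and Mrc1. In the second of these clusters alone, 6 of 27 genes were at least 2-fold lower and 2 (Gdf15 and Ddb2) higher in Flox+RI than in Flox+ICI, with backgrounds of 6.24% and 4.55%. The 6 were the 4 of the whole class with Cdkn1a and Mdm2. Immediate early and heat shock genes had a median log2 ratio of 0.61 in macrophage-like cells, and their part in the result was not tested.

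In the library labelled CKO+RI, macrophage-like cells had 6 of 28 genes at least 2-fold above Flox+RI and 1 at least 2-fold below, with backgrounds of 6.11% and 9.39%. Gdf15, a secreted stress cytokine, was at 44.8, 23.0 and 99.7 CPM (4.34-fold above Flox+RI, 3.65 to 5.17), so that the highest library was the one labelled CKO+RI. Sesn1 was at 25.3, 19.2 and 50.4 CPM (2.63-fold, 2.14 to 3.24) and Polk, a translesion polymerase, at 10.4, 6.85 and 18.6 CPM (2.72-fold, 1.92 to 3.88). Phlda3 was 2.37-fold higher (1.82 to 3.10) and Gadd45a, a damage and stress sensor, 2.04-fold lower (1.60 to 2.63). Bbc3 and Zmat3 make up the 6. The median log2 ratio was 0.07, beside 0.10 over all genes.

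Classical monocyte-like cells, of which Flox+RI held 121, had Cdkn1a at 329, 268 and 260 CPM, with an interval for Flox+RI against Flox+ICI that included 1 (1.22-fold lower, 0.933 to 1.63). Of 25 genes compared, 2 were at least 2-fold higher and 5 lower, with backgrounds of 7.64% and 8.48%. The 2 were Btg2 (2.40-fold higher, 1.73 to 3.26) and Plk3 (2.22-fold higher, 1.16 to 3.95). The lower genes were Bbc3, Trp53inp1, Zmat3, Polk and Rrm2b, each on 0 to 3 UMIs in Flox+RI. Relative to Flox+RI, 3 of 22 genes were higher and 2 lower in the library labelled CKO+RI, with backgrounds of 10.2% and 7.86%. Of these, Apaf1 was 2.96-fold higher (1.32 to 8.24) and Fas 3.36-fold lower (1.71 to 6.37), and the others were Bbc3 and Trp53inp1 (higher) and Plk3 (lower).

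Among the 8 compared classes, neutrophil-like cells were the one in which Cdkn1a was higher in Flox+RI than in Flox+ICI, at 244, 836 and 302 CPM (3.43-fold above Flox+ICI, 3.08 to 3.82). Bax was at 71.9, 257 and 88.1 CPM (3.58-fold, 2.94 to 4.38), Ccng1 at 23.4, 76.6 and 33.0 CPM (3.27-fold, 2.29 to 4.73) and Gdf15 at 2.08, 21.9 and 6.78 CPM on 4, 32 and 8 UMIs (10.5-fold, 3.73 to 40.9). Flox+RI stood alone in each of the 4. Mdm2 was at 104, 159 and 85.5 CPM (1.53-fold, 1.26 to 1.86). Xpc, the sensor of nucleotide excision repair, was the 1 gene at least 2-fold lower, at 31.3, 14.4 and 46.6 CPM.

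In all, 7 of 24 genes were at least 2-fold higher and 1 lower in Flox+RI than in Flox+ICI, but 21.0% of all genes were higher and 4.98% lower, and the median log2 ratio was 0.62 beside 0.39 over all genes. Against Flox+RI, the library labelled CKO+RI had 2 of 24 genes at least 2-fold higher and 7 lower, with backgrounds of 5.79% and 15.1%, and the median was -0.53 beside -0.26. Cdkn1a was 2.77-fold lower (2.46 to 3.13), Bax 2.92-fold lower (2.34 to 3.66), Ccng1 2.32-fold lower (1.60 to 3.43) and Ei24, an endoplasmic reticulum death gene, 3.10-fold lower (1.61 to 6.42). Xpc (3.24-fold, 1.93 to 5.64) and Gadd45a (2.18-fold, 1.78 to 2.68) were higher.

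The make-up of the class differed between libraries, and the Cdkn1a difference was smaller within a cluster. Cluster 0, led by S100a9 and Retnlg, held 1568, 671 and 619 cells, and cluster 1, led by Il1b and Il1r2, held 88, 1207 and 17. Cdkn1a was at 213, 335 and 273 CPM in cluster 0. In cluster 1 it was at 1097 CPM in Flox+ICI and 1132 in Flox+RI. In cluster 0 alone, 1 of 20 genes (Rrm2b) was at least 2-fold higher and 1 (Xpc) lower in Flox+RI than in Flox+ICI, with backgrounds of 8.13% and 4.0%, and Ccng1 was at 23.8, 22.1 and 33.7 CPM. Between the 2 libraries from irradiated mice, cluster 0 alone had 0 of 20 genes lower and 1 (Xpc) higher in the one labelled CKO+RI, with backgrounds of 6.2% and 5.84%. The summed neutrophil markers of the class were at 159301, 49914 and 150105 CPM.

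A further cluster of 2274 cells in Flox+RI, with 33 in Flox+ICI and 1 in the library labelled CKO+RI, was led by Ccl3 and Ccrl2 and stayed unnamed, with 3 neutrophil markers found in at least 10% of its cells. In Flox+RI it held Cdkn1a at 756 CPM (718 to 795), Mdm2 at 641 (607 to 677), Bax at 643 (608 to 679) and Gdf15 at 314 (290 to 339). Its Mdm2 was above that of each of the 8 compared classes of Flox+RI, of which the neutrophil-like cells were highest at 159 CPM. Trp53 was at 40.7 CPM and Phlda3 at 23.1 CPM there. The 33 cells of Flox+ICI in this cluster had Cdkn1a at 918 CPM (605 to 1335) and Mdm2 at 476 (260 to 798). They had Bax at 986 CPM (660 to 1415), and Gdf15 at 68.0 (8.23 to 246) on 2 UMIs. With 1 library holding nearly all of it, this cluster and the library cannot be told apart.

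**Figure D5:**
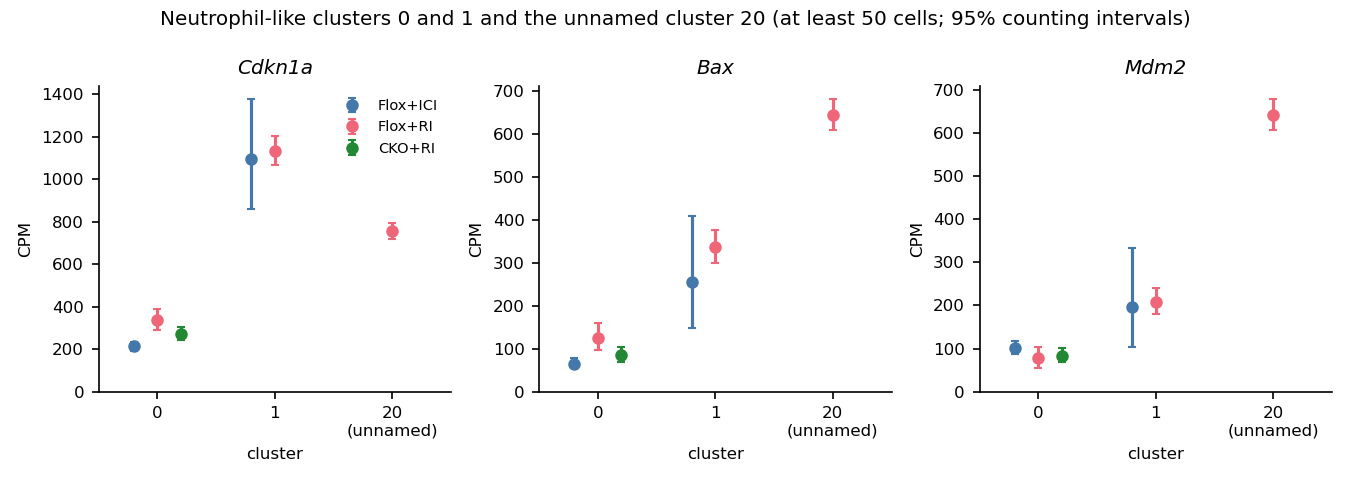
CPM of Cdkn1a, Bax and Mdm2 in the neutrophil-like clusters 0 and 1 and in the unnamed cluster 20, 1 point per library with at least 50 cells, with 95% counting intervals. Cluster 1 is at 1097 and 1132 CPM of Cdkn1a in the 2 Flox libraries, and cluster 20 holds the highest Bax and Mdm2 points of Flox+RI.

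In T cell-like cells 4 of 27 genes were at least 2-fold lower in Flox+RI than in Flox+ICI, 2 of them with a minimum of 50 UMIs. Ccng1 was at 80.3, 32.6 and 43.7 CPM (2.47-fold lower, 1.72 to 3.62) and Zmat3 at 34.8, 12.0 and 19.5 CPM (2.90-fold lower, 1.61 to 5.60). Short of 2-fold, Cdkn1a was at 176, 96.0 and 104 CPM (1.84-fold lower, 1.48 to 2.29) and Mdm2 at 84.6, 50.6 and 47.4 CPM (1.67-fold lower, 1.23 to 2.30). In these 4 genes both libraries from irradiated mice lay below Flox+ICI. Trp53, at 100, 109 and 74.2 CPM, was higher than in the other host classes compared in each library.

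Beside the 4 lower genes, 0 of the 27 were at least 2-fold higher, with backgrounds of 2.0% (higher) and 3.78% (lower), and the median log2 ratio was -0.44 beside -0.10 over all genes. Xpc was at 13.4, 5.14 and 13.7 CPM (2.60-fold lower, 1.04 to 7.76), and the fourth lower gene was Perp, with 16 UMIs in Flox+ICI and 4 in Flox+RI. Against Flox+RI, the library labelled CKO+RI had 2 of 26 genes at least 2-fold higher and 0 lower, with backgrounds of 5.91% and 5.51%. These were Xpc (2.66-fold, 1.07 to 7.91) and Sesn1, at 42.8, 33.4 and 73.2 CPM (2.19-fold, 1.53 to 3.21). Without doublet removal 0 of 29 genes passed 2-fold in that comparison, with backgrounds of 4.11% (higher) and 5.35% (lower). The summed markers of CD8 T cells in the class were at 1532, 833 and 2586 CPM, and their part in the result was not tested. In cells gated on Cd8 genes, 286, 165 and 243 in number, Ccng1 was at 82.8, 25.6 and 39.0 CPM (3.23-fold lower in Flox+RI, 1.48 to 8.38). Cdkn1a, at 148, 102 and 92.6 CPM there, had an interval that included 1 (1.44-fold lower, 0.943 to 2.27). In cells gated on Cd4, 120, 60 and 69 in number, it was Cdkn1a that was lower in Flox+RI (2.70-fold, 1.31 to 6.28). Ccng1 in the Cd4-gated cells had an interval that included 1 (1.12-fold lower, 0.460 to 3.01).

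Genes that act on p53, and further targets outside the list, were counted in the same way. Of 15 p53 regulators and damage kinases (among them Atm, Chek2 and Mdm4), in Flox+RI against Flox+ICI 0 of 13 genes with enough UMIs were at least 2-fold higher and 1 lower in tumour-like cells, 0 of 9 in either direction in endothelial-like cells and 0 of 12 in either direction in macrophage-like cells. Of 16 further targets, 1 of 15 was higher and 3 lower in tumour-like cells, 2 of 5 were lower and 0 higher in endothelial-like cells, and 2 of 13 were lower and 0 higher in macrophage-like cells. In neutrophil-like cells 1 of 8 of these further targets was higher and 1 lower. By name, these were Trp73 among the regulators (lower) and Ephx1 (higher), Steap3, Slc19a2 and Tap1 (lower) among the targets in tumour-like cells, Ephx1 and Tap1 in endothelial-like cells, Psrc1 and Trp53cor1 in macrophage-like cells, and Trp53cor1 (higher) and Cyfip2 (lower) in neutrophil-like cells. For comparison, the shares of all genes past 2-fold higher and lower were 3.32% and 8.61% in tumour-like, 5.64% and 13.5% in endothelial-like, 3.62% and 3.30% in macrophage-like and 21.0% and 4.98% in neutrophil-like cells. These lists had no test of their own.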

How the data were processed

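Tumour tissue of 3 groups of mice was digested to single cells and profiled by droplet single-cell RNA sequencing, 1 library per group, with groups taken from the titles. The authors deposited raw UMI counts per gene and barcode from Cell Ranger (version 6.1.2 per the file headers, 6.0 in the submitters' processing notes, where mm10, GRCm38 and Seurat 5.0.3 are also listed). Every deposited barcode had at least 500 UMIs. Depth of a class in a library sets its precision, which the intervals give.

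Barcodes with under 200 genes or over 20% mitochondrial UMIs were dropped. Doublets were scored per library with scrublet in scanpy 1.11.5 and the highest 0.8% per 1000 barcodes removed (915, 1367 and 653). Cells were clustered (2000 variable genes without the 32 members, 30 components, 15 neighbours, Leiden resolution 1.0, no integration) into 24 clusters. A cluster was called "X-like" from marker lists, if its mean marker level (log2, 10 CPM added) exceeded that of the median cluster by at least 1, at least 3 markers were in 10% of its cells and its 10 leading genes did not favour another class, and a cluster of low depth with no own marker among those genes stayed unnamed. Where Xist was under 20 CPM, only tumour, erythroid or platelet names were allowed, and tumour needed a score of at least 0. These thresholds were set after the data were seen. UMIs were summed per class and library. Log2 ratios had 0.5 counts added. Classes with at least 50 cells in all libraries were compared. No test was possible with 1 library per group.

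Always named were Trp53, Mdm2, Cdkn1a and Ccng1, with, per class and comparison, up to 4 genes in each direction past 2-fold whose interval left out 1, farthest by the bound nearest to 1. In tumour-like and macrophage-like cells any member with at least 20 UMIs could be named. Named after their values were seen were Phlda3, Sesn1, Plk2 and Apaf1 in endothelial-like cells, Bax in fibroblast-like cells, Dcxr, genes named without a ratio to complete a count of 5 or fewer, and Bax, Gdf15 and Phlda3 in the unnamed cluster. The members, lists and markers were chosen with earlier results of these data known. Alternatives changed the cell naming, doublet removal, weighting, minimum of UMIs, fold, centring, depth and clustering resolution. The script was tested on simulated data. Reads that members share with near copies were not examined. The genome sequence is RefSeq, GRCm38.p6.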

Additional observations from a re-analysis of the deposited data

Results flagged for a closer look

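In 13 cases a listed gene was at least 2-fold higher in one cell class and at least 2-fold lower in another under the same comparison, with both intervals leaving out 1. With 1 library per group the difference was not tested in any of them. The share of all genes with such opposite directions was not computed, so the number of cases has no background. All values are log2 ratios.

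For Flox+RI against Flox+ICI, neutrophil-like cells were on the higher side in 5 of the 7 cases. In that class 21.0% of all genes were at least 2-fold higher. In its cluster 0 alone 1 of 20 listed genes (Rrm2b) was, with a background of 8.13%. Cdkn1a was at 1.78 in neutrophil-like and -2.24 in endothelial-like cells, Gdf15 at 3.25 and -2.75, and Aen, a p53-induced nuclease, at 2.08 and -1.41 in the same 2 classes. Ccng1 was at 1.70 in neutrophil-like and -1.29 in T cell-like cells, and Phlda3 at 1.01 in neutrophil-like and -1.84 in macrophage-like cells. The other two cases involved classical monocyte-like cells, with Plk3 at 1.19 there and -1.83 in endothelial-like cells, and Btg2 at 1.27 there and -1.72 in fibroblast-like cells.

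For the library labelled CKO+RI, relative to Flox+RI, there were 6 cases. Bbc3 was at 3.04 in endothelial-like and -1.19 in neutrophil-like cells, and Aen at 1.12 and -1.01 in the same 2 classes. Phlda3 was at 1.24 in macrophage-like and -1.01 in tumour-like cells. Gdf15 was at 2.12 in macrophage-like and -1.63 in neutrophil-like cells, Fas at 1.27 in endothelial-like and -1.77 in classical monocyte-like cells, and Gadd45a at 1.13 in neutrophil-like and -1.02 in macrophage-like cells. Both comparisons share the Flox+RI library.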

How the results depend on the processing

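No paired analysis was possible because each group has 1 library. Of 132 alternative counts of genes past 2-fold, 102 stayed within 1.5 times the main count and 30 did not. Of 122 alternative medians, 117 stayed within the 95% interval of the main median, 4 did not and 1 reversed. That interval is taken from the ranked log2 ratios of the listed genes. It covers the spread among genes and not counting error. Of 735 alternative ratios of single genes, 590 kept within their interval, 140 moved and 5 reversed. Depth limits the classes of few cells, mainly alveolar type 2-like, endothelial-like, fibroblast-like and monocyte-like cells of Flox+RI. The cause of the changes below was not tested, unless fewer genes or cells or another fold make it. At 1.5-fold in either direction the share of all genes was 28.7% and 28.2% in tumour-like cells (first comparison, then second). It was 21.0% in macrophage-like cells (first), 52.5% and 44.6% in neutrophil-like cells and 19.8% and 29.2% in T cell-like cells. In either direction at 2-fold, the main share was 11.9% and 14.3% in tumour-like, 19.1% and 17.3% in endothelial-like and 6.92% in macrophage-like cells (first). In neutrophil-like cells it was 26.0% and 20.9%, and in T cell-like cells 5.78% and 11.4%. Counts below are given out of the listed genes that entered. The share of all genes was not computed for the marker gate, Leiden resolution 2.0, equal weights, thinning, centring or other minimums of UMIs. Nor was it computed for macrophage-like cells without doublet removal. Counts under these settings have no background of their own.

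In tumour-like cells the count for Flox+RI against Flox+ICI was 1 of 31 with each cell weighted equally and 1 of 26 after thinning. It was 7 of 31 at 1.5-fold and 0 of 31 without clusters 2 and 9. The median of this comparison was -0.021 when centred on all genes. The count for the library labelled CKO+RI over Flox+RI was 1 of 31 when centred and 6 of 31 at 1.5-fold. The median of that comparison was -0.24 without clusters 2 and 9.

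In endothelial-like cells the count for Flox+RI against Flox+ICI was 8 of 22 with an Hpgd UMI and 6 of 18 without. Ccng1 reversed to 0.10 in cells with an Hpgd UMI. For the library labelled CKO+RI over Flox+RI the median was 0.083 with each cell given the same weight, beside 0.086 over all genes. The median was -0.12 with an Hpgd UMI, where Trp53inp1 was at -0.10. The count was 4 of 15 at a minimum of 50 UMIs and 2 of 8 after thinning. It was 2 of 16 with an Hpgd UMI and 4 of 22 without.

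In macrophage-like cells the count for Flox+RI against Flox+ICI was 3 of 31 without doublet removal. It was 10 of 28 at 1.5-fold and 8 of 27 in cluster 19 alone.

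In neutrophil-like cells the count for Flox+RI against Flox+ICI was 16 of 24 at 1.5-fold. It was 2 of 20 in cluster 0 alone, where Ccng1 was at -0.062. The count for the library labelled CKO+RI over Flox+RI was 5 of 24 with each cell gated by its own markers. It was 4 of 23 at Leiden resolution 2.0, 14 of 32 with no minimum of UMIs and 14 of 24 at 1.5-fold. In cluster 0 alone it was 1 of 20, and Ccng1 there was at 0.57.

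In T cell-like cells the count for Flox+RI against Flox+ICI was 2 of 24 at a minimum of 50 UMIs. It was 7 of 32 with no minimum and 11 of 27 at 1.5-fold. In Cd4-gated cells it was 2 of 11, where 11.0% of all genes passed 2-fold, and the median was -0.16. Xpc, at 0.92 in Cd4-gated cells, had 1 UMI in each of these libraries. The count for the library labelled CKO+RI over Flox+RI was 0 of 29 without doublet removal and 1 of 23 at a minimum of 50 UMIs. It was 4 of 32 with no minimum and 7 of 26 at 1.5-fold. The splits by cluster, by Hpgd and by Cd4 or Cd8 genes were chosen after seeing the data.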

Other observations

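Alveolar macrophage-like cells were outside the comparisons, since Flox+RI held 49 of them. Gdf15 was at 72.9 CPM (56.2 to 93.1) in Flox+ICI, 57.3 (26.2 to 109) in Flox+RI and 412 (375 to 451) in the library labelled CKO+RI. Cdkn1a in these cells was at 823, 312 and 459 CPM, and Mdm2 at 150, 127 and 101 CPM. NK cell-like cells, of which Flox+RI held 41, had Cdkn1a at 434, 142 and 207 CPM. Dendritic cell-like cells had Cdkn1a at 324, 327 and 492 CPM.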
